A study of Oryza sativa with 12 samples.

Results

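Wild type embryos of the rice cultivar Nipponbare (NIP) were compared between 7 and 25 days after pollination (DAP), which are named the early (EE) and the late (LE) stage. The 6 wild type libraries, 3 per stage, were chosen by their sample titles from the 12 libraries of the series. The other 6 libraries came from *Oslec1-1*, a CRISPR/Cas9 mutant of the seed maturation regulator *OsLEC1* in the same background, at the same stages, and are used here only where the change with stage in the wild type is set beside that of the mutant. Wild type embryos carried no mutation or transgene by their labels and received no treatment. About 30 embryos were collected, so that each library is a pool of whole embryos, and polyadenylated RNA was sequenced. Plants grew with 16 h of light and 8 h of dark at 24 °C, and the day temperature is 28 °C in the sample records and 30 °C in the study's methods. The library codes of the 2 stages differ, so stage and sequencing run cannot be told apart.

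At EE, a rice embryo has laid down its main organs, the shoot apex, the radicle and the scutellum, which is the organ that faces the endosperm. By LE, it has passed through maturation, when reserves accumulate, water is lost and the seed prepares for rest. Storage proteins of the rice grain lie for the most part in the starchy endosperm, with a smaller part in the embryo. In pooled whole embryos, fewer cells of a type and less RNA per cell cannot be told apart. The identifiers of the count table are not paired with the symbols of embryo or endosperm marker genes in the sources used here, so the labelled tissue was not checked against its markers, and the part of RNA from other seed tissues in any change was not tested.

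The EE libraries held 16113922 to 19549536 counts on genes, and the LE libraries 17836409 to 25492787. A count of 0 in a library allows up to 3 counts, which is 0.180 to 0.227 CPM (counts scaled to a common library total) at EE and 0.0966 to 0.141 CPM at LE, and this limit covers counting error only. CPM values are given after TMM normalization, a scaling that sets the bulk of genes level between libraries. Levels of different genes are compared only in FPKM, which takes account of gene length. Replicates differed by more than sampling noise in all 6 pairs of libraries within a stage, and their chi-square divided by the number of genes lay between 7.86 and 33.4. Counts on rRNA genes made up 0.0227% to 0.0913% of a library.

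A few genes held much of the RNA of EE embryos, and less of that of LE embryos. The 10 most abundant genes took 28.2%, 31.3% and 30.9% of the counts of the 3 EE libraries and 14.2%, 13.6% and 12.8% of those of the LE libraries. The 50 most abundant genes took 41.7% ± 1.52 (SD, n = 3) at EE and 22.9% ± 1.28 (SD, n = 3) at LE. Every EE library lay above every LE library, and the exact two-sided permutation test gave *p* = 0.1, the smallest value that 3 against 3 samples allow. The most abundant genes that together made up 50% of the counts numbered 207, 149 and 143 at EE and 868, 943 and 1057 at LE. The sets of leading genes also differed. The 10 genes with the highest mean FPKM at EE held 28.3% ± 1.69 (SD, n = 3) of the counts at EE and 2.23% ± 0.213 (SD, n = 3) at LE, and 7 of them were called lower at LE. The 10 genes that led at LE held 3.10% ± 0.211 (SD, n = 3) at EE and 12.8% ± 0.604 (SD, n = 3) at LE, and 3 of them were called higher. No gene stood in both groups of 10, while 26 genes were among the leading 50 of both stages.

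**Figure D1:**
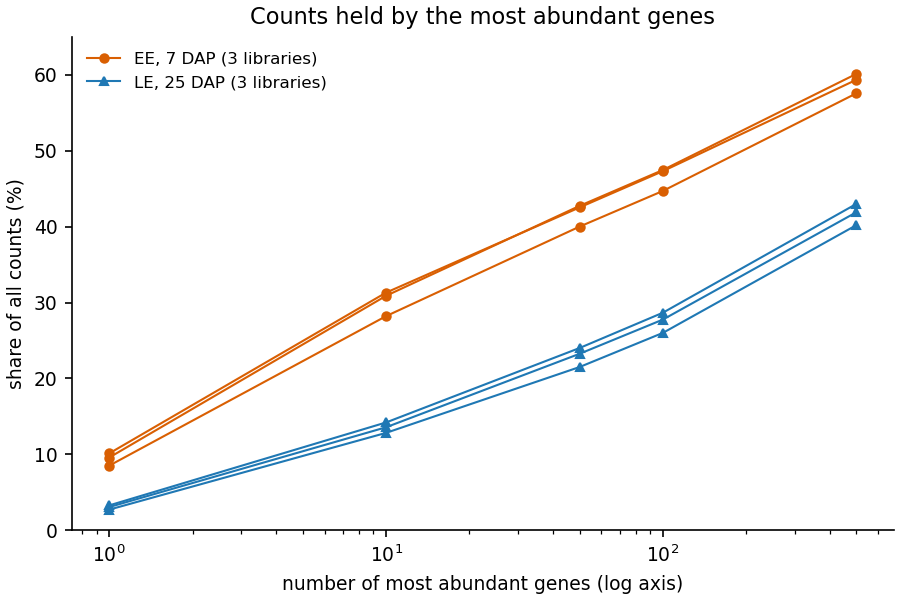
Share of all counts (%) held by the 1, 10, 50, 100 and 500 most abundant genes of each wild type library (log axis), with circles for the 3 EE libraries and triangles for the 3 LE libraries. All EE lines lie above all LE lines, with mean shares of 30.1% against 13.5% at 10 genes and 59.0% against 41.7% at 500 genes.

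Calls rest on edgeR's quasi-likelihood test over the 6 wild type libraries, with a Benjamini-Hochberg adjusted *p* under 0.05 across all genes tested and a log2 fold change of 2 or more in either direction. Of the 22129 genes tested, 1567 were higher at LE, which is 7.08%, and 1351 were lower, which is 6.11%. The median log2 fold change of all genes tested was 0.02. When libraries were scaled by their totals alone, this median moved to 0.58 and the numbers to 2380 higher and 818 lower, so that 74.4% of the calls were higher in place of 53.7%. Changes below are relative to the TMM scale.

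The gene with the highest mean FPKM at EE was Os08g0127900 (IRGSP-1.0, chromosome 8, 1597239 to 1599498), for which the sources used here give no function. Its level was 61151, 70052 and 71488 CPM in the EE libraries and 544, 684 and 643 CPM in the LE libraries. This was a log2 fold change of -6.76 ± 0.24 (SE, adjusted *p* = 5.3e-07), and the stages lay far apart. The gene overlaps another gene with counts, and reads on the shared part could fall to either. At LE, the highest mean FPKM belonged to Os08g0104400 (chromosome 8, 233816 to 234464), also without annotation here. It rose from 1689.7, 1919 and 2041 CPM to 21672, 23166 and 21253 CPM, a log2 fold change of 3.55 ± 0.17 (SE, adjusted *p* = 1.57e-06). Among called genes without annotation that averaged 100 or more normalized counts at the higher stage, the largest fitted changes were those of Os01g0907600 and Os02g0576400. Os01g0907600 rose from 0.840, 1.29 and 0.0709 CPM to 1528, 1323 and 1093 CPM. Os02g0576400 had 24.0, 30.6 and 22.9 CPM at EE and no count in any LE library, so it was at least 227-fold lower at LE, with 3 counts per library as the floor. Os01g0907600 thus passed from near silence at EE to a clear level at LE, and Os02g0576400 from a clear level at EE to no count at LE.

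**Figure D2:**
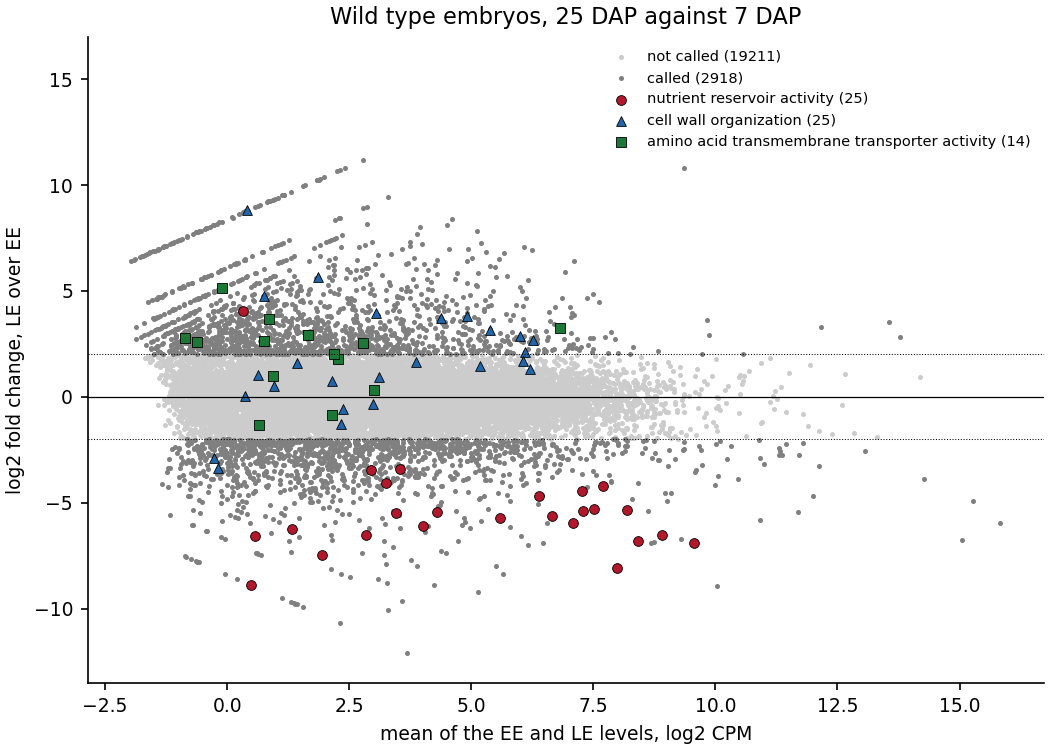
Log2 fold change, LE over EE, of the 22129 genes tested against the mean of their EE and LE levels (log2 CPM), with called genes in dark grey and dotted lines at 2 and -2. The tested members of the lists for nutrient reservoir activity (25 circles), cell wall organization (25 triangles) and amino acid transmembrane transporter activity (14 squares) are coloured, and 24 of the circles lie below -2.

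Genes are described below by lists of Gene Ontology (GO) terms that the study gives for genes higher in the mutant than in the wild type at EE. They hold 339 genes in 17 lists, which overlap, and 10 of the lists are cut after 30 identifiers, so none stands for a whole gene family. Annotated genes are those with a GO term of the study, 347 of those tested, or a name in the files, 53 of those tested. Rankings of annotated genes thus leave out most of the 22129 genes tested. The study chose these genes with the same wild type EE libraries, and that choice favours low levels at EE in the wild type. Members higher at LE are therefore not independent evidence of a direction, and no list was tested as a set. Each number of called genes in a list or family below stands beside 7.08% higher and 6.11% lower of all genes tested. A gene without counts at EE is tested only if it is high at LE, so counts and medians over tested members describe those members alone. By limma on log2(FPKM + 1), which understates changes of low genes, fewer members were called higher: 3 for chitinase, 4 for transfer of hexosyl groups, 1 for monooxygenase, 5 for amino acid transporters, 2 for light harvesting, 2 for light reaction and 0 for photosynthesis, where DESeq2 gave 11, 13, 9, 9, 7, 7 and 3. With 10 counts required in every library, 0 light harvesting genes were called higher. For lower members, limma called 4 transcription factor genes, 3 carbohydrate genes and 1 chitinase gene.

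Genes for nutrient reservoir activity, the GO term for seed storage proteins, fell almost together between EE and LE. Of the 30 genes listed, 25 could be tested, of which 24 were lower at LE and 1 was higher, beside 6.11% and 7.08% of all genes. Their median log2 fold change was -5.63, or -5.49 with the member that had no LE count set at its bound. The summed level of the list was 6165, 7451 and 5745 CPM in the EE libraries and 185, 119 and 69.4 CPM in the LE libraries, a 51.9-fold difference of the means. All 25 tested members kept the stages apart, with no overlap between EE and LE libraries. The share of all genes without overlap is not given here. With no fold limit, 6491 of the 22129 genes tested were higher and 6434 lower. Separation of the stages is therefore not read as particular to the list. The direction was against the one that the choice of the list favours.

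Os01g0762500 (chromosome 1, 32076744 to 32078652) and Os07g0206500 (chromosome 7, 5741877 to 5742488) had the highest FPKM of the storage genes, with means of 642 and 648 at EE and 7.70 and 23.6 at LE. Os01g0762500 had 1392, 1739 and 1366 CPM at EE and 18.4, 11.7 and 7.78 CPM at LE, a log2 fold change of -6.90 ± 0.34 (SE, adjusted *p* = 1.58e-06). Os07g0206500 had 620.2, 637 and 441 CPM at EE and 20.2, 14.2 and 7.23 CPM at LE, a log2 fold change of -5.36 ± 0.37 (SE, adjusted *p* = 7.87e-06). Both remained well above the limit that a count of 0 allows in every LE library. Os10g0400200 was at 895, 1134 and 836 CPM and then at 14.5, 10.6 and 6.78 CPM. Os03g0766100 changed least of these 4 abundant storage genes, from 413, 492 and 283 CPM to 31.7, 20.8 and 12.7 CPM, a log2 fold change of -4.19 ± 0.35 (SE, adjusted *p* = 2.02e-05). Os01g0762500 and Os03g0766100 each overlap another gene with counts. Storage proteins come in families of near-identical copies, and the program that counted the reads is not given in the sources used here, so reads could be split between copies.

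Further storage genes were among the 10 largest falls of annotated genes. Os03g0427300 (chromosome 3, 17864282 to 17866204) went from 482, 553 and 481 CPM to 2.82, 2.09 and 0.764 CPM, a log2 fold change of -8.09 ± 0.39 (SE, adjusted *p* = 1.39e-06). Os02g0453600 went from 586, 826 and 621 CPM to 9.04, 5.92 and 3.20 CPM, with a log2 fold change of -6.82. Os02g0248800 went from 6.48, 7.11 and 9.21 CPM to 3 counts in all LE libraries together, a ratio of 204 with a counting interval of 69.8 to 989. In all 3, the lowest EE library lay far above the highest LE library. The storage genes that fell also tended to one order among replicates. EE replicate 2 was the highest EE library for 19 of the 24 genes that fell, LE replicate 1 was the highest LE library for 22, and LE replicate 3 was the lowest for 21. The same order over all genes tested is not given here, so it is not read as particular to storage genes. The one member that rose, Os09g0568700, was chosen for mention after its values were seen. It was at 0.120, 0.151 and 0.142 CPM at EE and 2.40, 1.45 and 3.30 CPM at LE (log2 fold change 4.06 ± 0.50, SE, adjusted *p* = 0.000183). Without LE replicate 3, a second member was called higher.

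Genes for IgE binding fell as well. In rice this term covers seed proteins that act as allergens, among them relatives of the cereal amylase and trypsin inhibitors. All 7 genes listed were tested and all 7 were lower at LE, with a median log2 fold change of -5.29 and summed levels of 544, 730.3 and 507 CPM at EE and 32.2, 18.9 and 8.13 CPM at LE. The list is not separate from the others, since 5 of its genes are also listed for nutrient reservoir activity and 5 for serine-type endopeptidase inhibitor activity. Os05g0499100, which is also a nutrient reservoir gene, was at 354, 411 and 303 CPM and then at 16.0, 8.21 and 3.51 CPM. Os07g0214300, which is also an inhibitor gene, was at 86.5, 147 and 80.1 CPM and then at 8.66, 6.12 and 2.26 CPM. Os06g0133000, listed for transfer of hexosyl groups as well, fell furthest of the 7, from 29.2, 50.4 and 33.3 CPM to 0.0471, 0 and 0.174 CPM (log2 fold change -8.88 ± 0.47, SE, adjusted *p* = 2.19e-06).

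Serine-type endopeptidase inhibitors block proteases and are stored in many seeds. Of the 17 genes listed, 12 were tested, 9 were lower at LE and 1 was higher, and the median log2 fold change was -3.88. The sum of the list fell less than that of the storage genes, from 909.9, 1055 and 1037 CPM to 392, 316 and 276 CPM. Its most abundant member, Os01g0124200, held most of what remained. This gene was at 537, 477 and 646 CPM at EE and 353, 286 and 249 CPM at LE, and its log2 fold change of -0.90 ± 0.17 (SE, adjusted *p* = 0.0016) did not reach the fold limit. In contrast, Os07g0215500 fell from 153, 216 and 161 CPM to 2.68, 1.29 and 0.695 CPM, a log2 fold change of -6.88 ± 0.39 (SE, adjusted *p* = 2.97e-06). The member that rose, Os01g0132000, named after its values were seen, was at 1.32, 1.44 and 1.28 CPM and then at 4.47, 7.18 and 10.8 CPM.

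Together the 3 lists hold 44 genes, of which 30 were lower at LE. A group of 12 of them lies on chromosome 7 between 5736877 and 6746344 (IRGSP-1.0), and all 12 were lower, with a median log2 fold change of -5.16. The same stretch holds 69 other genes, of which 39 were tested. Of these, 4 were lower and 1 was higher, and their median log2 fold change was 0.01. The genes of the lists thus fell while most of the tested genes between them were not called. The gene there that was higher, Os07g0209100 (5890575 to 5894128), annotated for hydrolysis of O-glycosyl bonds, rose from 1.44, 1.13 and 1.06 CPM to 185, 122 and 148 CPM. Its log2 fold change of 6.94 ± 0.22 (SE, adjusted *p* = 5.3e-07) was among the 10 largest rises of annotated genes. It lies in the largest gap between the list genes of this stretch, which is 497 kb long, so the list genes that fell on both sides are not close to it.

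**Figure D3:**
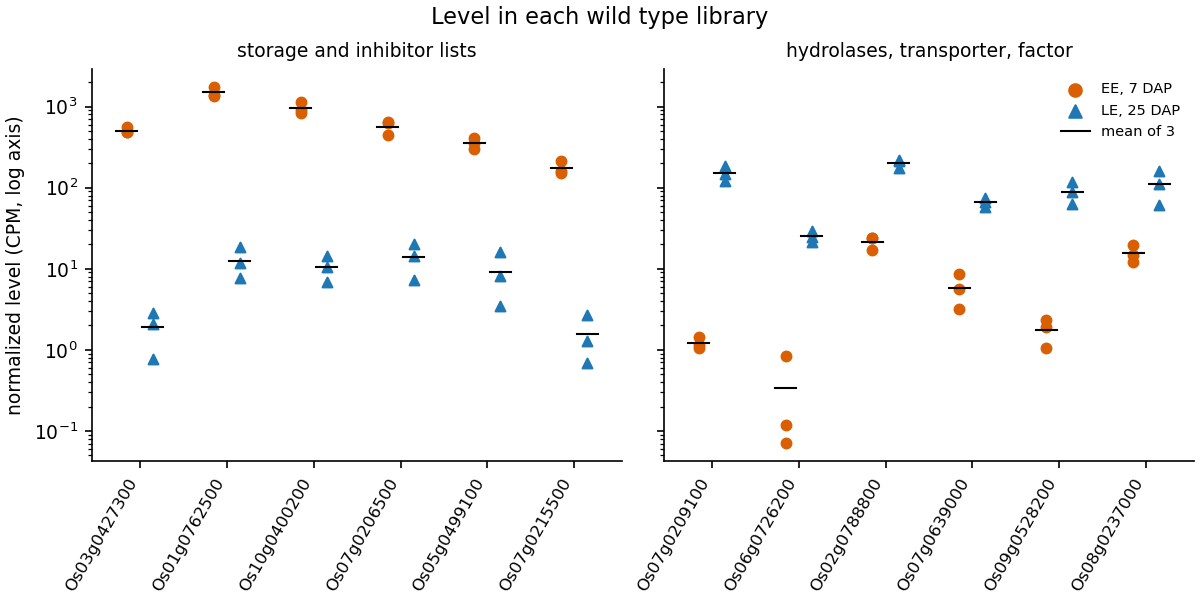
Level of 12 named genes in each wild type library (CPM, log axis), with circles for the 3 EE libraries, triangles for the 3 LE libraries and short lines for the mean of 3. In the left panel, 6 genes of the storage and inhibitor lists lie lower at LE in every library, and in the right panel 6 genes of the hydrolase, peroxidase, transferase, transporter and transcription factor lists lie higher at LE in every library.

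A transcription factor gene and 2 transporter genes were among the largest falls outside the storage lists. Os10g0191900, annotated for DNA-binding transcription factor activity, went from 17.2, 23.4 and 16.2 CPM to 0.0471, 0.0644 and 0.104 CPM (log2 fold change -7.89 ± 0.31, SE, adjusted *p* = 6.71e-07). Os02g0202400, an anion transmembrane transporter gene, went from 15.8, 22.3 and 12.8 CPM to 3 counts over the LE libraries, a ratio of 454 with a counting interval of 155 to 2201. Os06g0324150, an oligopeptide transporter gene, had 6.36, 5.30 and 3.83 CPM at EE and no count at LE, at least 45.3-fold lower. It overlaps another gene with counts. Os01g0895200, annotated for an oxidation-reduction process, had 7.14, 4.24 and 4.25 CPM at EE and no count at LE, at least 45.7-fold lower. For these genes EE and LE libraries did not overlap.

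**Figure D4:**
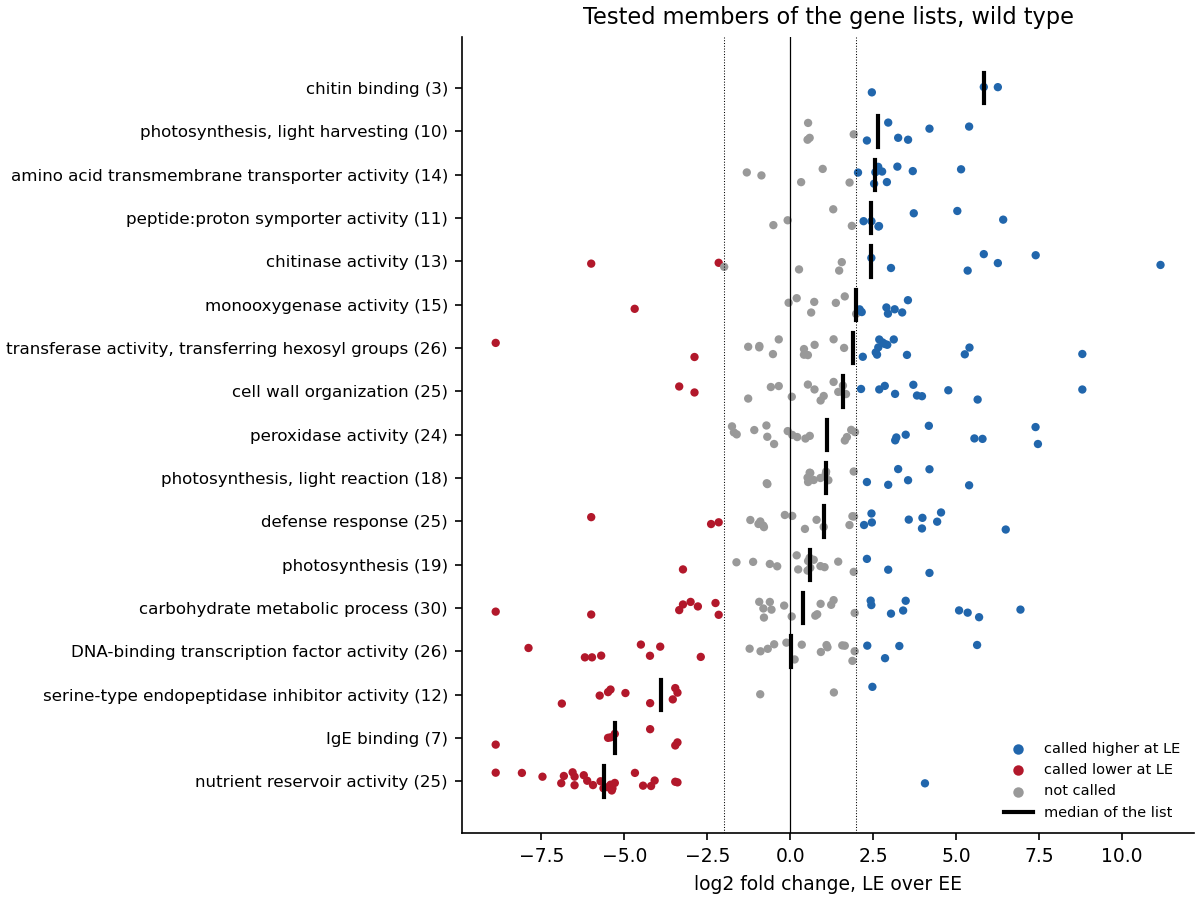
Log2 fold change, LE over EE in the wild type, of each tested member of 17 GO lists, with the number tested in brackets, the list median as a black bar and dotted lines at 2 and -2. The lists for nutrient reservoir activity, IgE binding and serine-type endopeptidase inhibitors lie to the left with medians of -5.63, -5.29 and -3.88, while the 3 chitin binding and 10 light harvesting genes tested have medians of 5.84 and 2.64. Genes near silence at EE are tested only if high at LE. Over all 7 and all 17 members in the fit of 12 libraries, these medians were 2.49 and 1.94.

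Among the genes listed for the cell wall, more were called higher than lower at LE, the direction that the choice of the lists favours. The wall of plant cells is built by transferases that join sugars and is loosened or broken down by hydrolases. Of 30 genes listed for cell wall organization, 25 were tested, 10 were higher at LE and 2 were lower, and the median log2 fold change was 1.59. The summed level was 209.5, 225 and 222 CPM at EE and 778, 817 and 1047 CPM at LE, a 4.02-fold rise of the mean that was larger than the spread of the replicates. LE replicate 3, the library with the lowest storage sum, had the highest sum here. Os03g0822000, the most abundant member in FPKM, was at 21.2, 15.4 and 21.8 CPM and then at 48.8, 53.6 and 57.2 CPM, and its log2 fold change of 1.45 ± 0.15 (SE, adjusted *p* = 5.99e-05) lay within the fold limit. The 2 members that fell were Os07g0607400 and Os07g0480800, both named after their values were seen, and both were under 2 CPM in every library.

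Transferases that transfer hexosyl groups gave a similar picture and share 9 genes with the cell wall list. Of 30 genes listed, 26 were tested, 13 were higher and 2 lower, and the median was 1.91. The lower ones were Os06g0133000, described with the IgE binding genes, and Os07g0480800. Os08g0237000 rose from 12.2, 19.7 and 14.6 CPM to 61.2, 111 and 162 CPM (log2 fold change 2.85 ± 0.34, SE, adjusted *p* = 0.000149). Os11g0539200 was at 38.7, 51.1 and 36.9 CPM and then at 71.0, 91.9 and 151 CPM, with a log2 fold change of 1.31 that did not reach the fold limit. For carbohydrate metabolic process, all 30 genes listed were tested and the directions were mixed, with 9 higher, 8 lower and a median of 0.40.

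Chitinases cleave the chitin of fungal walls. Genes listed for chitinase activity were 3 of the 10 annotated genes with the largest fitted rises among those averaging 100 or more normalized counts at LE. Os05g0247800, Os11g0701100 and Os11g0701800 below are also annotated for enzyme inhibitor activity, so the terms do not settle whether their products cleave chitin. Of 26 genes listed, 13 were tested, 7 were higher and 2 lower, and the median log2 fold change was 2.45. Os05g0247800 (chromosome 5, 8959416 to 8960566) had no count in the EE libraries and 12.4, 10.6 and 18.2 CPM at LE, at least 66.7-fold higher. Os06g0726200, which is also listed for chitin binding, rose from 0.120, 0.832 and 0.0709 CPM to 29.0, 21.4 and 25.0 CPM (log2 fold change 6.26 ± 0.46, SE, adjusted *p* = 1.02e-05). Os03g0132900 had 2 counts at EE and 8.47, 8.11 and 9.49 CPM at LE, a ratio of 191 with a counting interval of 53.0 to 1579.7. These 3 genes were all but silent at EE and measurable in every LE library. The opposite was seen for Os11g0701100, which fell from 14.7, 26.1 and 15.1 CPM to 0.282, 0.0322 and 0.556 CPM (log2 fold change -6.00 ± 0.53, SE, adjusted *p* = 2.7e-05), and for Os11g0701800, named after its values were seen, with -2.15. The call of Os11g0701800 was lost without EE replicate 3 (-1.93) or without LE replicate 2 (-1.82). Of 7 chitin binding genes, 3 could be tested and were called higher, Os06g0726200, its neighbour Os06g0726100 and Os03g0133400. The first 2 passed the filter only through their LE counts, so being tested all but fixed their direction, and the median over all 7 in the fit of 12 libraries was 2.49. Os03g0133400 went from 3, 3.93 and 2.06 CPM to 13.2, 14.7 and 21.5 CPM.

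Other enzymes that act on wall sugars started from single counts at EE. Os02g0765600, a gene for polysaccharide breakdown, had 1 count over the EE libraries and 13.9, 8.69 and 7.16 CPM at LE, a ratio of 418 with a counting interval of 75.1 to 16527. Os06g0696600, annotated for metabolism of cell wall macromolecules, had 1 count at EE and 4.66, 7.18 and 15.7 CPM at LE. The LE libraries of the latter differed by more than 3 times among themselves, yet all lay above EE.

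Peroxidases oxidise substrates with hydrogen peroxide, and many plant members act in the wall. Of 30 genes listed, 24 were tested, 8 were higher and 0 lower, and the median log2 fold change was 1.12. At an unadjusted *p* under 0.05, 12 were higher and 5 lower by edgeR, DESeq2 and limma also called 0 lower, and without LE replicate 1 a member passed the fold limit in the lower direction. The sum was 79.5, 71.4 and 86.8 CPM at EE and 206, 209 and 265 CPM at LE. Os07g0639000 rose from 8.70, 5.6 and 3.19 CPM to 73.5, 67.1 and 57.2 CPM (log2 fold change 3.48 ± 0.29, SE, adjusted *p* = 2.09e-05). Os06g0306300 had 2 counts at EE and 9.98, 7.86 and 9.52 CPM at LE, a ratio of 198 with a counting interval of 54.8 to 1636. Os03g0121200, the other abundant member in FPKM, was at 3.54, 4.39 and 5.32 CPM and then at 8.10, 16.5 and 26.4 CPM, and its log2 fold change of 1.96 lay just under the fold limit.

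Among monooxygenases, a group that holds enzymes of secondary metabolism and hormone synthesis, 15 of 30 genes listed were tested, 7 were higher and 1 was lower, and the median was 1.99. The lower one was Os03g0112900, named after its values were seen, with 1.20, 1.13 and 0.992 CPM at EE and 3 counts over the LE libraries. The number of lower members was 2 when EE replicate 1 or any LE replicate was left out, as more genes then passed the filter. The 2 most abundant members, Os09g0441400 and Os10g0171500, had log2 fold changes of 1.99 and 1.65, under the fold limit. For defense response, 25 of 30 genes were tested, 9 were higher and 3 lower, and the median was 1.01. Os02g0181300 rose from 3.66, 4.92 and 5.10 CPM to 26.4, 39.2 and 96.7 CPM, with LE replicate 3 far above the other LE libraries (log2 fold change 3.58 ± 0.48, SE, adjusted *p* = 0.00027). Os04g0350100, which is also a peptidase inhibitor gene, moved from 51.3 ± 5.2 to 89.2 ± 6.91 CPM (SD, n = 3), with a log2 fold change of 0.80. The lower ones were both Os11g0701100 and Os11g0701800 of the chitinase list and Os03g0186900, which went from 39.6 ± 1.3 to 7.56 ± 1.3 CPM (SD, n = 3). The number of lower genes was 5 without LE replicate 3. A defense gene outside the first 30 identifiers, Os11g0592200, rose from 3 counts at EE to 11.5, 7.92 and 10.6 CPM.

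In the lists for amino acid and peptide:proton transporters, edgeR called 9 and 7 members higher at LE, while the oligopeptide transporter gene Os06g0324150 described above was lower. In germinating barley grain, peptide carriers of the scutellum bring breakdown products of endosperm protein into the embryo. For amino acid transmembrane transporter activity, 14 of 21 genes were tested, 9 were higher and 0 lower, and the median log2 fold change was 2.55. At an unadjusted *p* under 0.05, 11 were higher and 1 was lower by edgeR, and DESeq2 and limma also called 0 lower. The sum was 46.7, 55.3 and 37.9 CPM at EE and 224, 265 and 297 CPM at LE, a 5.62-fold difference of the means. Most of it came from Os02g0788800, which rose from 23.8, 24.1 and 17.1 CPM to 177, 212 and 222 CPM (log2 fold change 3.23 ± 0.17, SE, adjusted *p* = 1.83e-06). Os06g0556000, which overlaps another gene with counts, was near the limit at 2.05 and lost its call without EE replicate 1 (1.90), EE replicate 3 (1.99) or LE replicate 3 (1.76).

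For peptide:proton symporter activity, 11 of 22 genes were tested, 7 were higher and 0 lower, and the median was 2.45, or 2.21 with the member that had no EE count at its bound. Leaving out any library other than EE replicate 2 added 1 lower member, as more genes then passed the filter. At an unadjusted *p* under 0.05, 9 were higher and 0 lower by edgeR, while DESeq2 called 2 lower and limma 0 with 1 added to FPKM or 1 with 0.1 added. The sum was 23.7, 30.4 and 28.9 CPM at EE and 91.0, 98.1 and 118 CPM at LE. Os01g0902700 rose from 0.480, 0.454 and 0.142 CPM to 7.44, 13.5 and 15.3 CPM (log2 fold change 5.04 ± 0.42, SE, adjusted *p* = 2.09e-05). Os06g0264500 was at 11.3, 14.5 and 12.1 CPM and then at 47.9, 43.9 and 45.8 CPM, and its log2 fold change of 1.86 ± 0.12 lay under the fold limit although the libraries of each stage were close together. An anion transporter gene, Os01g0645900, rose from 0.240, 0.0757 and 0.213 CPM to 12.1, 10.05 and 11.6 CPM.

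Transcription factor genes moved both ways. Of 30 genes listed, 26 were tested, 4 were higher and 8 lower, and the median was 0.01, or 0.58 when libraries were scaled by totals alone. Os09g0528200 rose most, from 1.92, 1.06 and 2.34 CPM to 62.1, 88.4 and 117 CPM (log2 fold change 5.64 ± 0.32, SE, adjusted *p* = 2.83e-06). The other rising genes, named after their values were seen, were Os08g0544800, Os10g0404900 and Os06g0140700, with log2 fold changes of 3.29, 2.86 and 2.33. Os08g0544800 was at 2.76, 2.95 and 2.62 CPM and then at 23.2, 27.5 and 31.0 CPM, with little spread at either stage. Os05g0121600 moved from 25.8 ± 10.1 to 99.1 ± 12.3 CPM (SD, n = 3), with a log2 fold change of 1.95 that passed the limit without EE replicate 2 (2.31) or LE replicate 3 (2.04).

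Genes of photosynthesis were low at both stages, and some rose. Light-harvesting proteins bind chlorophyll and pass light energy to the photosystems, and a rice embryo develops inside the closed grain. Of 17 light harvesting genes, 10 were tested, 6 were higher and 0 lower. The median was 2.64, or 1.94 over all 17 in the fit of 12 libraries. At an unadjusted *p* under 0.05, 8 were higher and 0 lower by edgeR, and DESeq2 and limma also called 0 lower. The whole list summed to 7.32, 7.87 and 8.43 CPM at EE and 26.9, 26.0 and 27.6 CPM at LE, and the stages did not overlap. Os07g0171100 rose from 0.36, 0.454 and 0.780 CPM to 6.83, 6.15 and 5.77 CPM (log2 fold change 3.56 ± 0.29, SE, adjusted *p* = 1.74e-05), and Os07g0562700 rose from 0.180, 0.378 and 0.780 CPM to 3.39, 3.32 and 3.58 CPM. Os03g0333400, the member with the highest FPKM at EE among those named, was at 1.97 ± 0.390 and 2.87 ± 0.0523 CPM (SD, n = 3) and did not pass the test (adjusted *p* = 0.0742). Os04g0457000 had too few counts to be tested, with 2 counts at EE and a ratio of 9.77 (counting interval 2.70 to 80.7), and overlaps another gene with counts.

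The light reaction list contains the light harvesting list whole, and 18 of its 30 genes were tested, with 6 higher, 0 lower and a median of 1.08. At an unadjusted *p* under 0.05, 11 were higher and 1 was lower by edgeR, and DESeq2 and limma called 0 lower. Of 30 genes listed for photosynthesis, 19 were tested, 3 were higher and 1 was lower, and the median was 0.59. The higher ones were Os07g0562700, Os02g0197600 and Os09g0346500, and the lower one was Os06g0326400, which went from 8.22, 8.70 and 9.64 CPM to 0.424, 1.06 and 1.25 CPM. The last 3 were named after their values were seen. The most abundant members changed by less than the fold limit. Os07g0556200 was at 9.50 ± 2.52 and 25.9 ± 1.60 CPM (SD, n = 3), a log2 fold change of 1.45 ± 0.18 (SE, adjusted *p* = 0.000181). Os07g0558500 was at 4.67 ± 0.408 and 7.64 ± 0.813 CPM (SD, n = 3), a log2 fold change of 0.71 with an adjusted *p* of 0.00594, while Os02g0750100, at 2.34 ± 0.209 and 1.46 ± 0.486 CPM (SD, n = 3), did not pass the test (adjusted *p* = 0.0772).

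The files name 1129 noncoding and organelle genes by family, of which 53 were tested. MicroRNA precursors are long polyadenylated transcripts from which the short regulatory RNA is cut, and the mature microRNA itself is not measured by these libraries. Of the 9 precursors tested, 3 were higher at LE and 0 lower. The MIR1428 precursor ENSRNA049472287 (chromosome 2, 2535029 to 2535152) had no count at EE and 7.91, 9.89 and 10.9 CPM at LE, at least 46.3-fold higher. The MIR164 precursor ENSRNA049475964 (chromosome 3, 10542157 to 10542288) rose from 0.240, 0.151 and 0 CPM to 5.46, 8.34 and 6.88 CPM (log2 fold change 5.61 ± 0.48, SE, adjusted *p* = 2.17e-05). In Arabidopsis, miR164 acts on transcripts of NAC transcription factors. The mir-166 precursor ENSRNA049471001 rose from 0.36, 0.984 and 0.425 CPM to 3.53, 4.02 and 3.72 CPM, with a log2 fold change of 2.70. In plants, miR166 acts on transcripts of class III HD-ZIP factors, which pattern organs. None of the 3 precursors overlaps another annotated gene.

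Of 26 small nucleolar RNA genes tested, 2 were higher, a share near the 7.08% of all genes: a SNORD14 gene (ENSRNA049473653, 0.252 ± 0.0462 to 1.22 ± 0.125 CPM, SD, n = 3) and a U54 gene (ENSRNA049465332), which overlaps another gene with counts and lost its call without LE replicate 1 (1.75). Of 10 mitochondrial protein genes tested, *rps7-3* and *rps4* were higher, at under 3 CPM in every library. The mitochondrial rRNA genes *rrn18* (EPlORYSAT000373647) and *rrn26* (EPlORYSAT000373608) were called higher too, but *rrn18* lost its call without EE replicate 1 (adjusted *p* = 0.0598) and *rrn26* without EE replicate 2 (2.00). None of the 53 genes was called lower by edgeR, while 2 were lower at an unadjusted *p* under 0.05, DESeq2 called 0 and limma 1.

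The change with stage was then set beside that of *Oslec1-1*, which shares no library with it. Over all genes tested in the mutant, 6.49% were higher at LE and 4.86% lower. Of the genes tested in both, 1567 were higher at LE in the wild type and 1168 in *Oslec1-1*, with 668 shared, which is 42.6% of the first and 57.2% of the second. For lower genes the numbers were 1351 and 796, with 534 shared, which is 39.5% and 67.1%. The difference between the genotypes in the change with stage was tested for each gene as an interaction on all 12 libraries. It had an adjusted *p* under 0.05 for 33.4% of 24903 genes, with the change of *Oslec1-1* below that of the wild type for 16.7% and above it for 16.7%. Since the lists were chosen for high levels in *Oslec1-1* at EE, a smaller rise or a larger fall in the mutant is favoured by that choice.

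Storage genes fell in both genotypes. In *Oslec1-1*, 27 of the 30 nutrient reservoir genes and all 7 IgE binding genes were called lower at LE. The choice of the lists favours this direction in the mutant, so it is not independent evidence of a fall there. Scaled over all 12 libraries, the nutrient reservoir list summed to 56267 ± 1836 CPM at EE and 624 ± 488 CPM at LE in *Oslec1-1* (SD, n = 3). In the wild type it summed to 7363 and 143 CPM. Of the 43 genes of the 3 storage and inhibitor lists tested here, 4 differed between the genotypes, all with a lower value in *Oslec1-1*, and the median log2 fold changes were -4.96 in the wild type and -5.84 in the mutant. Os02g0453600 fell by a log2 of 6.82 in the wild type and by 6.81 in *Oslec1-1*, and the SE of 1.03 on their difference leaves room for a difference of several fold. Genes of the cell wall and transporter lists behaved otherwise. Of 67 such genes, the change was lower in *Oslec1-1* for 39 and higher for 3, and the medians were 1.79 in the wild type and -0.41 in the mutant. Of 30 light harvesting and light reaction genes, the change was lower in *Oslec1-1* for 11 and higher for 1, with medians of 0.84 and -0.12. Os02g0788800, the amino acid transporter gene that rose in the wild type, had a log2 fold change of -0.95 in *Oslec1-1*, a difference of -4.21 ± 0.22 (SE, adjusted *p* = 1.07e-07). Scaled over all 12 libraries, its mean level was 362 CPM at EE and 187 CPM at LE in *Oslec1-1*, beside 24.7 and 236 CPM in the wild type. Os08g0127900, which led the wild type at EE, had a log2 fold change of 0.77 in *Oslec1-1*, a difference of 7.51 ± 0.37 (SE, adjusted *p* = 7.87e-08). Its mean level was 1545 CPM at EE and 2637 CPM at LE in *Oslec1-1*, beside 77143 and 722 CPM in the wild type. For both genes the genotypes lay further apart at EE than at LE.

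**Figure D5:**
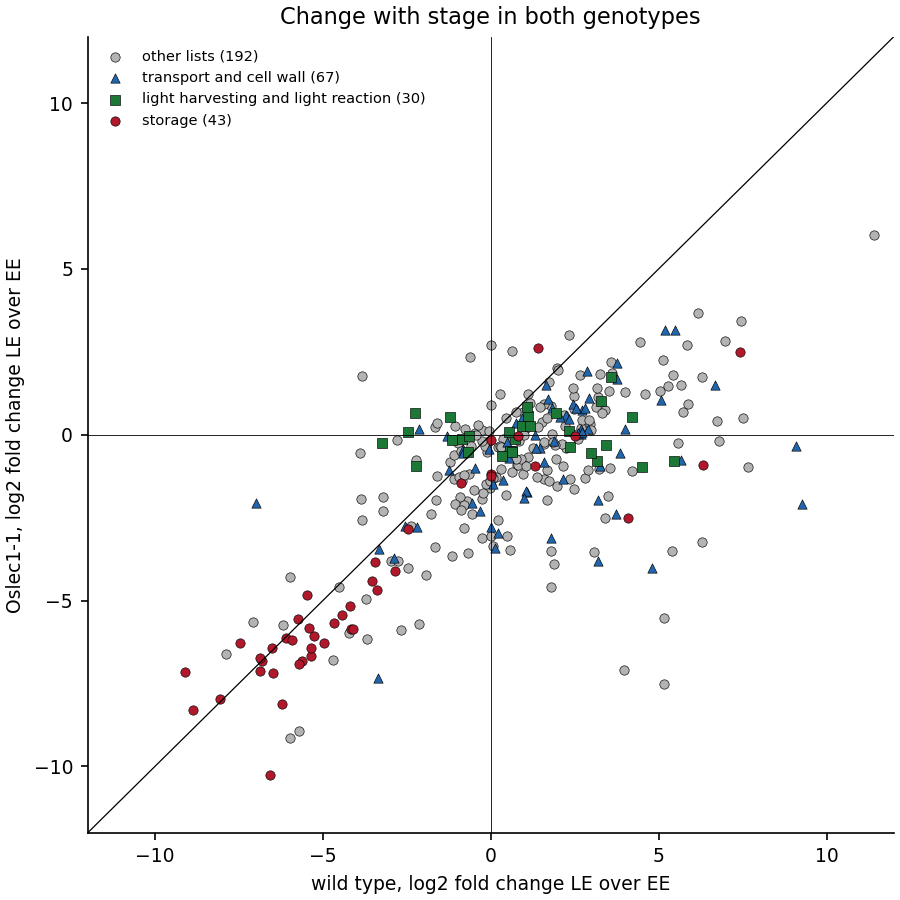
Log2 fold change, LE over EE, in *Oslec1-1* against that in the wild type for the genes of the 17 lists tested on all 12 libraries, with the line of equal change. Most of the 43 storage and inhibitor genes fell in both genotypes, with medians of -4.96 in the wild type and -5.84 in *Oslec1-1*, and 4 differed, all lying below the line. The 67 transporter and cell wall genes lie mostly below the line, with medians of 1.79 and -0.41.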

How the data were processed

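Per the labels and the study's methods, Trimmomatic 0.36 and HISAT2 2.1.0 (genome IRGSP-1.0) preceded the counts per gene that the authors deposited without normalization, and the program that counted them is not given in the sources used here. The deposited FPKM values come from StringTie 1.3.4d. The 6 wild type libraries were tested with edgeR 4.0.16 (R 4.3.3; filterByExpr, TMM, quasi-likelihood), which left 22129 of 38978 genes, and the test was checked on simulated data. Genotypes were compared by an interaction on all 12 libraries. Alternatives used DESeq2 1.42.0 and limma 3.58.1. Figures and tables were made with Python 3.11.15. The study calls its 3 replicates biological, but nothing states whether they came from separate plants, so *p* values measure the spread between these samples.

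The genes named were the 10 annotated genes per direction with the largest change among those with at least 100 normalized counts in the higher stage, and the 2 to 4 members of each list with the highest mean FPKM. Annotation came from the study's GO terms and from names in the files, as 1 identifier matched the reference table. Members and lists were chosen with earlier results of these data known. *OsLEC1*, gene families by description, marker genes and promoter motifs were not analysed here for lack of names and sequences.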

Additional observations from a re-analysis of the deposited data

Results flagged for a closer look

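The change with stage differed between *Oslec1-1* and the wild type (interaction on all 12 libraries, edgeR, adjusted *p* under 0.05) for 32 of the 54 genes chosen by the naming rule and for 47 of all genes named, beside 33.4% of all genes tested. The rule picks large changes in the wild type, and the same change enters the difference, so an excess is favoured by the choice of genes and is not a result about them. The largest adjusted *p* of the 47 was 0.0440, 42 of the differences were below 0, and the SE lay between 0.14 and 2.93. The differences below are the log2 fold change, LE over EE, of *Oslec1-1* minus that of the wild type. The lists of nuclear genes were chosen for high levels in the mutant at EE, so values below 0 are favoured by that choice.

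Of the genes for wall sugars and chitin that rose in the wild type, Os02g0765600 differed by -8.24, Os06g0696600 by -6.74, Os03g0132900 by -4.03, Os07g0209100 by -4.12, Os06g0726200 by -4.56, Os06g0726100 by -4.95 and Os03g0133400 by -1.72. For the hexosyl transferase gene Os11g0539200 the difference was -1.75, for the cell wall gene Os03g0822000 -1.87 and for Os07g0607400, which fell in both genotypes, -3.98. The chitinase genes that fell in the wild type differed in opposite directions, Os11g0701100 by 1.69 and Os11g0701800 by -3.57.

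The peroxidase genes Os06g0306300 and Os07g0639000 differed by -7.02 and -5.34, the monooxygenase gene Os10g0171500 by -3.62 and the defense genes Os04g0350100 and Os02g0181300 by -1.72 and -1.74. Os06g0306300 had at most 1 count in any wild type EE library, so its difference is loosely measured (SE 0.54). Among transporter genes the differences were -4.65 for Os01g0645900, -2.07 for Os06g0264500, -4.02 for Os01g0902700, -4.21 for Os02g0788800 and -1.54 for Os06g0556000. Among transcription factor genes they were -4.16 for Os09g0528200, -3.50 for Os05g0121600, -3.96 for Os10g0404900, -2.67 for Os08g0544800 and -3.70 for Os06g0140700.

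Genes of photosynthesis differed by smaller amounts in part, with -0.63 for Os07g0556200, -0.84 for Os07g0558500, -1.06 for Os03g0333400 and -1.84 for Os07g0171100, and by -3.96 for Os04g0457000, -3.52 for Os07g0562700, -2.20 for Os02g0197600 and -3.69 for Os09g0346500, while Os06g0326400 differed by 1.33. Os04g0457000 had at most 1 count in any wild type EE library, so its difference is loosely measured (SE 0.63). Of the storage and inhibitor genes named, the 2 that rose in the wild type differed, Os09g0568700 by -6.60 and Os01g0132000 by -2.54.

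Among precursors and small nucleolar RNA genes, the differences were -9.92 for MIR1428 (ENSRNA049472287), -3.49 for MIR164 (ENSRNA049475964), -1.71 for mir-166 (ENSRNA049471001), -2.66 for SNORD14 (ENSRNA049473653) and -2.04 for U54 (ENSRNA049465332). The oxidation-reduction gene Os01g0895200 differed by 6.53. In the wild type, Os01g0895200 had no count at LE and the MIR1428 precursor none at EE, so the size of both fitted differences is not measured. With 3 counts per library as the floor, the wild type log2 fold change of Os01g0895200 was -5.51 or lower, beside -3.49 in *Oslec1-1*. Of the genes without annotation, Os01g0907600 differed by -4.94, Os08g0127900 by 7.51 and Os08g0104400 by 1.31.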

How the results depend on the processing

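Of 1567 genes higher and 1351 lower at LE, leaving out one library at a time gave 1480 to 1805 and 1327 to 1513. Scaling by library totals gave 2380 and 818, a filter of 10 counts in every library 534 and 815, testing that the change exceeds 2 (log2) gave 723 and 706, a fold limit of 1 gave 3375 and 3422, and no fold limit 6491 and 6434. With limma on FPKM plus 1 the numbers were 946 and 389, with all genes 924 and 379, and with 0.1 added 773 were lower; the cause was not tested. Other scalings, no filter, DESeq2 and all 12 libraries stayed within 1.5 times. Deviations from the stage mean correlated at 0.10, 0.11 and 0.03 between libraries of the same replicate number, and EE replicate 3 was closest to LE replicate 1. With 3 libraries per stage, these values cannot settle whether the replicate numbers pair the samples. A replicate block gave 1552 higher and 1373 lower genes. The share of counts in the 50 most abundant genes was 1.82 times higher at EE, and 2.23, 1.69 and 1.42 times for 10, 100 and 500 genes. The number of rule genes with an interaction stayed within 1.5 times of 32 under the other scalings. No named gene changed sign under any alternative, and of 1455 repeats over 75 genes, 68 lost the call and 52 gained it. For the lists, 542 of 680 repeated counts stayed within 1.5 times. Promoter motifs, a planned analysis, were not run because no sequences were used here.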
